A study of Mus musculus with 2 samples.

Results

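The genes described here are 43 genes of the sarcomere, the contractile unit of striated muscle, and of its assembly. They were chosen by symbol, and all 43 were found among the 32286 features of the count tables. The set holds 5 myosin heavy chains, 3 myosin light chains, 6 genes of thick filament partners and the M-band, 10 genes of actins, tropomyosins and thin filament ends, 7 troponins, 7 Z-disc genes, 2 creatine kinases and 3 assembly factors. Expression was measured in satellite cells, the stem cells of skeletal muscle, sorted by flow cytometry 5 days after injury. They came from 2 muscles, biceps and recto femoris, of Pax3GFP/+ mice, which carry green fluorescent protein at the Pax3 locus. Cells with and without its signal (GFP+ and GFP-) were loaded separately, 20000 cells per fraction, on a droplet platform that counts the 3′ ends of transcripts. The sample titles give the Pax3GFP/+ genotype while the genotype field reads wild-type, and both fractions carry the same entries. The way of injury, the age and sex of the mice, their number, and whether animals were pooled were not given in the sources used here. There was 1 library per fraction, so no statistical test between fractions was possible, and the 95% intervals given below cover counting error only.

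In a sarcomere, myosin thick filaments pull on actin thin filaments, troponin and tropomyosin on the thin filament let calcium switch the pull on, titin spans from the Z-disc to the M-band, and Z-disc and M-band proteins hold the array in register. Many of these proteins exist as isoforms encoded by separate genes. Developing and regenerating fibres are known for embryonic and neonatal myosins and for isoforms shared with heart muscle, such as cardiac alpha-actin and cardiac troponin T, which give way to adult fast or slow isoforms as fibres mature. Cytoplasmic actins, myosins and tropomyosins of other genes serve the cytoskeleton of nearly every cell. Myogenin, encoded by Myog, is a transcription factor of myoblast differentiation and is switched on ahead of most of the contractile genes.

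The GFP+ library held 718416 barcodes and 13928952 unique molecular identifiers (UMIs, each standing for 1 captured transcript), and the GFP- library 1361552 barcodes and 49709323 UMIs. A barcode was taken as a cell if it held 1000 UMIs or more from 500 genes or more, with no more than 10% of them mitochondrial, which kept 604 in GFP+ and 2683 in GFP-, with median UMI counts of 18534 and 14663. Of these barcodes 2 occurred in both libraries. Cells were grouped by Myog UMIs per 10000 UMIs of the cell: 471 GFP+ and 1943 GFP- cells had none (Myog-0), 61 and 333 were low (above 0 to under 5), 16 and 128 middle (5 to under 20), and 56 and 279 high (20 or more). The cut at 20 was set by hand, and 7 GFP+ and 44 GFP- cells lay between 16 and 25. Cells past a gate of 50 macrophage-marker UMIs per 10000 numbered 76 and 56, and cells past the mural gate 0 and 109. Barcodes of 1 to 100 UMIs were summed as free RNA. Levels are the UMIs of a gene per 1000000 UMIs (CPM) of the summed cells, not divided by gene length because each transcript is counted at its 3′ end.

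The promoter sequences of 6 of the genes are shown first, because they carry the contrast that the counts turned on: Acta1 and Actc1 (skeletal and cardiac alpha-actin), Myh3 (embryonic myosin heavy chain) and Mylpf (fast regulatory light chain) were high in Myog-high cells, whereas Mybpc1 (slow myosin-binding protein C) departed from that pattern in both fractions and Lmod2 (leiomodin 2, an actin nucleator) in GFP+. Each is the 250 bases before the RefSeq start on the coding strand, build GRCm38.p6, at chr8:123894776-123895025 (- strand, Acta1), chr2:114052876-114053125 (- strand, Actc1), chr11:67078050-67078299 (+ strand, Myh3), chr7:127211358-127211607 (+ strand, Mylpf), chr6:24597521-24597770 (+ strand, Lmod2) and chr10:88605153-88605402 (- strand, Mybpc1). Capitals mark matches to 5 motifs whose letters and positions follow the sequences.
Acta1: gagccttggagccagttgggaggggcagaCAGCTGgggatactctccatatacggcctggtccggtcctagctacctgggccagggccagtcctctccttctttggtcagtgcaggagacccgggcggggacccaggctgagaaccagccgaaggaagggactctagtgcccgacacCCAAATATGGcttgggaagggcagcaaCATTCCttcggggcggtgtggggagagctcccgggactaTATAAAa
Actc1: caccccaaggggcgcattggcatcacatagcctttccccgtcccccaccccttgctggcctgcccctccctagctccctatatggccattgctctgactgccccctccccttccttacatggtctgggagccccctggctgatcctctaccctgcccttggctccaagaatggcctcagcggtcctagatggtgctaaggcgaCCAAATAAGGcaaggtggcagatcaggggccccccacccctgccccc
Myh3: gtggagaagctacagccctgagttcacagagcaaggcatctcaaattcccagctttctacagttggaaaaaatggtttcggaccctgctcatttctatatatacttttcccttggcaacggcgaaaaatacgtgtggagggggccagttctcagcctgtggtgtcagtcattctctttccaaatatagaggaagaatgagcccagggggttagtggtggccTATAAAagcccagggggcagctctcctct
Mylpf: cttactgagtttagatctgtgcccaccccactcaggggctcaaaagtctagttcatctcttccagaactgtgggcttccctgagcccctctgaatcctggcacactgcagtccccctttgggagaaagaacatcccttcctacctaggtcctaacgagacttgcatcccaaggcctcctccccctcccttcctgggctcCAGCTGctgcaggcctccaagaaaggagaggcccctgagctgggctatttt
Lmod2: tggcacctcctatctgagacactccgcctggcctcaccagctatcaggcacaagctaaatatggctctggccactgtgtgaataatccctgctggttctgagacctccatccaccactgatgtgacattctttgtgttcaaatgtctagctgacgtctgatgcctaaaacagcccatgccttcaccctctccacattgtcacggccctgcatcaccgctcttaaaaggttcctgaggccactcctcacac
Mybpc1: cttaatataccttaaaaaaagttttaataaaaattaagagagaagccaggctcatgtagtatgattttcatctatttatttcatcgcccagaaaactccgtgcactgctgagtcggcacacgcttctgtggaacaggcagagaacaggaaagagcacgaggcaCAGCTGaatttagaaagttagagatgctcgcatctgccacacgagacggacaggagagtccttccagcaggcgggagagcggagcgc
Counted from -1 at the base before the start, Acta1 held a CArG box, the sequence bound by serum response factor, at -73 to -64, CAGCTG at -221 to -216, CATTCC at -46 to -41 and TATAAA at -7 to -2. Actc1 held a CArG box at -47 to -38, Myh3 a TATAAA at -29 to -24, Mylpf a CAGCTG at -51 to -46 and Mybpc1 a CAGCTG at -87 to -82. Lmod2 held none of the capitalised motifs in this window.

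RefSeq promoters were found for 34 of the 43 genes, 38 promoters in all because 4 genes have more than 1 start. A CArG box lay in 6 of the 38 (15.8%) against 1.47% of all 32851 promoters, in the genes Myh4, Myom1, Acta1, Actc1 and Ldb3. CAGCTG, an E-box of the kind myogenic factors bind and one form of CANNTG, lay in 14 (36.8%) against 13% of all promoters. The wider CANNTG lay in 31 (81.6%) against 66.2% of all. CATTCC, the core of the MCAT element bound by TEAD factors, lay in 11 (28.95%) against 12.6%. The MEF2 site lay in 3 (7.895%), those of Ttn, Myoz2 and Klhl41, against 0.508% of all. TATAAA, searched on the coding strand only while the others were searched on both strands, lay in 5 (13.2%) against 7.59%. A match describes letters in this window and is not evidence of binding.

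Contractile genes were concentrated in the Myog-high cells of both fractions. In the sums of Myog-0 cells the 43 genes made up 0.1965% of GFP+ UMIs and 0.256% of GFP- UMIs, in Myog-low cells 0.359% and 0.375%, in Myog-middle cells 0.5585% and 0.5885%, and in Myog-high cells 1.44% and 2.22%. A gene was called higher or lower when it reached 20 CPM in at least 1 of the compared sums and its ratio was at least 2 or at most 0.5. A gene that reached 20 CPM in only 1 of the sums could be called only towards that sum. Between Myog-high and Myog-0 cells 28 genes reached 20 CPM in GFP+, and 24 of them were higher (9.31% of all features tested were), and 32 did in GFP-, of which 28 were higher (7.6% of all were). The same 23 genes were higher in both, and none was lower, where 19.5% and 14.5% of all features were. The median log2 ratio of the genes that reached the threshold was 4.22 in GFP+ and 4.77 in GFP-, beside -0.04 and -0.07 over all features that did. Many genes of the set, such as Myh3, Actc1, Acta1 and Klhl41, reached 20 CPM only in the Myog-high sums. For them a call of lower was not possible, and the counts and medians of the set include them. The Myog-0 sums include the macrophage-gated and mural-gated cells. Without gated cells the counts of higher genes were 23 and 28 (8.55% and 7.88% of all features were), and none was lower (16.1% and 13.1% of all were).

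**Figure D1:**
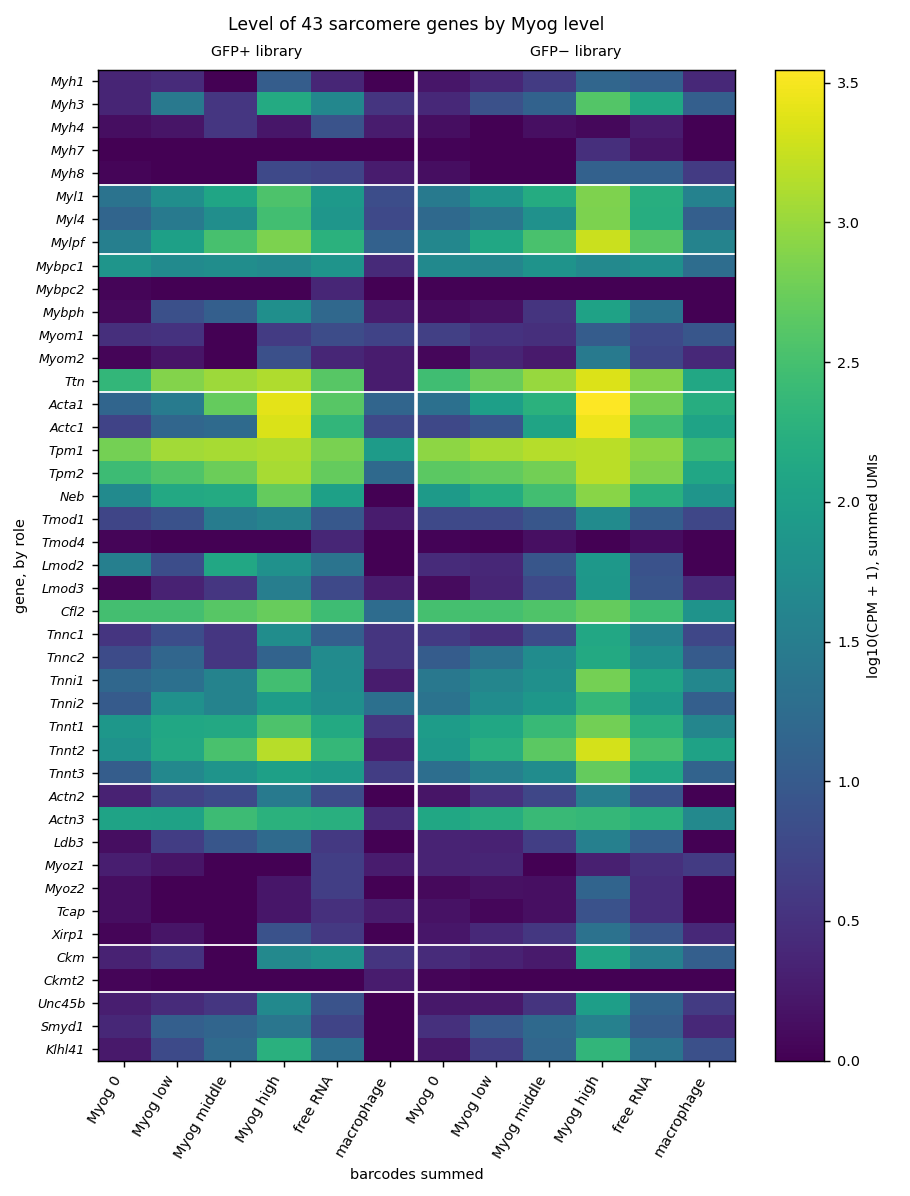
Level of each of the 43 genes, as log10 of CPM plus 1, in sums over Myog-0, low, middle and high cells, free RNA and macrophage-gated cells of each library; white lines part the roles. The Myog-high column is the brightest for most genes in both libraries, while the ratios of Mybpc1, Tpm1, Cfl2 and Actn3 between Myog-high and Myog-0 are between 0.649 and 2.14.

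Among the myosin heavy chains, the motor subunits, Myh3 was the only gene to reach 20 CPM at any Myog level. Myh3, the embryonic isoform, stood at 1.33, 26.1, 2.67 and 146 CPM in Myog-0, low, middle and high cells of GFP+, and at 1.54, 6.54, 11.9 and 389 CPM in GFP-. The high-to-0 ratio was 110 (60.5 to 224) in GFP+ and 253 (188.5 to 348) in GFP-. The GFP+ low value came mostly from 1 cell of 6085 UMIs, in which 12.9% of UMIs were of the 43 genes and which held 36 of the 45 Myh3 UMIs at that level. The adult fast genes Myh1 and Myh4 reached 10.0 and 0.628 CPM in Myog-high GFP+ cells and 14.0 and 0.179 CPM in GFP- cells, and the neonatal Myh8 5.02 and 11.5 CPM. Myh7, the slow isoform, had 0 UMIs in all kept GFP+ cells and 13 in GFP- cells, 11 of them in Myog-high cells.

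All 3 light chain genes were higher in Myog-high cells of both fractions. Mylpf, the fast regulatory light chain, went from 32.7 to 701 CPM in GFP+ (21.4-fold, 18.8 to 24.6) and from 43.1 to 1818 CPM in GFP- (42.1-fold, 39.7 to 44.7). Myl1, the fast alkali light chain, stood at 21.5 and 356.5 CPM in GFP+ and at 28.3 and 725 CPM in GFP-. Myl4, the embryonic and atrial alkali chain, stood at 13.4 and 299 CPM in GFP+ and at 15.1 and 697 CPM in GFP-. These genes were also at 56.1 to 323.5 CPM in the Myog-middle GFP+ cells and at 60.7 to 341 CPM in those of GFP-, between the Myog-0 and the Myog-high levels.

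Of the thick filament partners, titin was abundant at every Myog level and Mybpc1 did not follow Myog. Ttn, encoding titin, stood at 219, 762.5, 1051 and 1344 CPM from Myog-0 to Myog-high in GFP+ and at 284, 542, 993 and 2270 CPM in GFP-, ratios of 6.13 (5.76 to 6.53) and 7.99 (7.77 to 8.22) between the ends. A single Myog-low GFP+ cell held 603 of the 5669 Ttn UMIs of all kept GFP+ cells, so the GFP+ low value leans on that cell. Mybph, myosin-binding protein H, went from 0.241 to 56.5 CPM in GFP+, where Myog-0 cells held 2 of its UMIs, and from 0.273 to 110 CPM in GFP- (403-fold, 203 to 938). Mybpc1 went the other way in GFP+, with 69.6 CPM in Myog-0 and 45.2 in Myog-high cells (0.649, 0.501 to 0.830), and showed no difference beyond counting error in GFP- (47.8 and 45.2 CPM, 0.9455, 0.8235 to 1.08). Of the M-band genes, Myom2 stood at 26.7 CPM in Myog-high GFP- cells and 6.28 in GFP+ cells, and Myom1 at 9.87 and 3.14. Mybpc2, the fast myosin-binding protein C, had 1 UMI in the kept cells of each library.

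The sarcomeric actins had the highest levels of the set in Myog-high cells. Acta1 stood at 13.3, 29.0, 503 and 2554 CPM from Myog-0 to Myog-high in GFP+, and at 19.4, 99.2, 180.5 and 3521 CPM in GFP-. Its high-to-0 ratio was 192.5 (159 to 235) and 181.5 (167 to 198). Actc1 stood at 4.10, 13.9, 16.04 and 2195 CPM in GFP+ and at 4.85, 8.28, 118 and 2903 CPM in GFP-, ratios of 535 (382 to 774) and 599 (507.5 to 711). In GFP+ the Myog-middle cells thus held Acta1 at 503 CPM but Actc1 at 16.04 CPM, a value that rests on 16 cells. The tropomyosins, which lie along the thin filament, were above 200 CPM already in the Myog-0 sums: Tpm1 was at 629 and 1344 CPM in Myog-0 and Myog-high GFP+ cells and at 866 and 1498 in GFP- cells. Their ratios were small beside the actins, 2.14 and 1.73 for Tpm1 and 4.58 and 3.38 for Tpm2, and the GFP- value of Tpm1 was under 2. Neb, encoding nebulin, and Cfl2, the muscle cofilin that trims actin, were singled out after their values were seen: Neb had ratios of 10.6 and 9.50, and Cfl2 of 1.74 and 1.62. Lmod2 went from 32.6 to 60.9 CPM in GFP+ (1.87-fold, 1.47 to 2.365) and from 1.71 to 78.0 CPM in GFP- (45.7-fold, 34.05 to 62.5). Tmod1, a cap of the thin filament end, had ratios of 8.30 and 10.0, whereas Tmod4 had 1 and 3 UMIs in the kept cells.

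All but 1 of the troponins were higher in Myog-high cells of both fractions, the exception being Tnnc2, fast troponin C, which stayed under 20 CPM in the compared GFP+ sums. The GFP+ value of Tnnc1, 54.0 CPM in Myog-high cells (21.3-fold, 13.1 to 36.15), rests on 1 cell with 80 of its 86 UMIs, and without that cell it was 3.92 CPM (1.55-fold, 0.5115 to 3.97) and no longer reached the threshold. Tnnt2, cardiac troponin T, was the most abundant, with 62.7, 136, 331.5 and 1450 CPM from Myog-0 to Myog-high in GFP+ and 82.4, 173, 445 and 2052 CPM in GFP-. Its ratios were 23.1 (21.01 to 25.5) and 24.9 (23.8 to 26.0). Tnni1, slow troponin I, had ratios of 20.8 and 25.2, and Tnnt1, slow troponin T, of 4.79 and 6.87. The fast genes Tnni2 and Tnnt3 had ratios of 9.73 and 10.1 in GFP+ and of 10.8 and 27.7 in GFP-.

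The Z-disc genes split. Actn3, an alpha-actinin of fast fibres, was at 113 CPM in Myog-0 and 184.5 in Myog-high GFP+ cells and at 129 and 232 in GFP- cells, ratios of 1.64 and 1.80. Actn2, the other muscle alpha-actinin, stood at 1.21 and 28.2 CPM in GFP+ and at 0.581 and 31.6 CPM in GFP- (54.4-fold, 33.0 to 95.5). Ldb3, a PDZ and LIM protein that binds alpha-actinin, went from 0.362 to 15.7 CPM and from 1.26 to 34.1 CPM. The myozenins and Tcap, the titin cap, stayed under 20 CPM at each of the 4 Myog levels. Myoz2 reached 21.7 CPM only within the GFP- cells of 60 or more Myog UMIs per 10000. Ckm, muscle creatine kinase, went from 1.21 to 46.4 CPM in GFP+ (38.5-fold, 19.8 to 83.6) and from 1.74 to 122.5 CPM in GFP- (70.3-fold, 52.9 to 95.4). Ckmt2, its mitochondrial relative, had 1 and 3 UMIs in the kept cells.

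The 3 assembly factors were higher in Myog-high cells of both fractions. Klhl41, a kelch protein that stabilises nebulin, had 6 UMIs in Myog-0 and 279 in Myog-high GFP+ cells (0.724 and 175 CPM, 242-fold, 110 to 665) and 21 and 1205 in GFP- cells (0.717 and 216 CPM, 301-fold, 196 to 489). Unc45b, the myosin chaperone, had ratios of 49.4 and 140. Smyd1, a methyltransferase of myosin assembly, had ratios of 16.5 and 16.6 and was already at 11.01 and 8.42 CPM in Myog-low cells.

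Fewer genes differed at the lower Myog levels. In Myog-low against Myog-0 cells 10 genes were higher in GFP+ (3.72% of all features tested were) and 6 in GFP- (0.354% of all were), 5 of them in both: Myl1, Mylpf, Acta1, Tnni2 and Tnnt2. Among the other GFP+ calls, those of Myh3 and Ttn lean on single Myog-low cells, which held 36 Myh3 UMIs and 603 Ttn UMIs. The count was not recomputed without such cells. Lmod2 was lower in GFP+, where 4.4% of all features were, and no gene of the set was in GFP-, where 0.978% were. In Myog-middle cells 14 and 13 genes were higher (6.81% and 2.31% of all were), 10 of them in both, and none was lower (13.4% and 5.36% of all were). Within the Myog-high GFP- cells the gradient went on. At 20 to 40, 40 to 60 and 60 or more Myog UMIs per 10000, in 85, 78 and 116 cells, Actc1 stood at 917, 2448 and 4885 CPM, Acta1 at 1881, 2358 and 5747, Tnni1 at 252.5, 591 and 1004, and Myh3 at 236, 368 and 531. Tpm1 was flat over the same cells at 1518, 1451 and 1517 CPM, and Mybpc1 went from 56.5 to 44.95 and 36.0. In GFP+, with 11, 13 and 32 such cells, Actc1 stood at 241, 1412 and 3481 CPM, whereas Myh3 at 61.6, 219 and 141 did not keep that order.

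**Figure D2:**
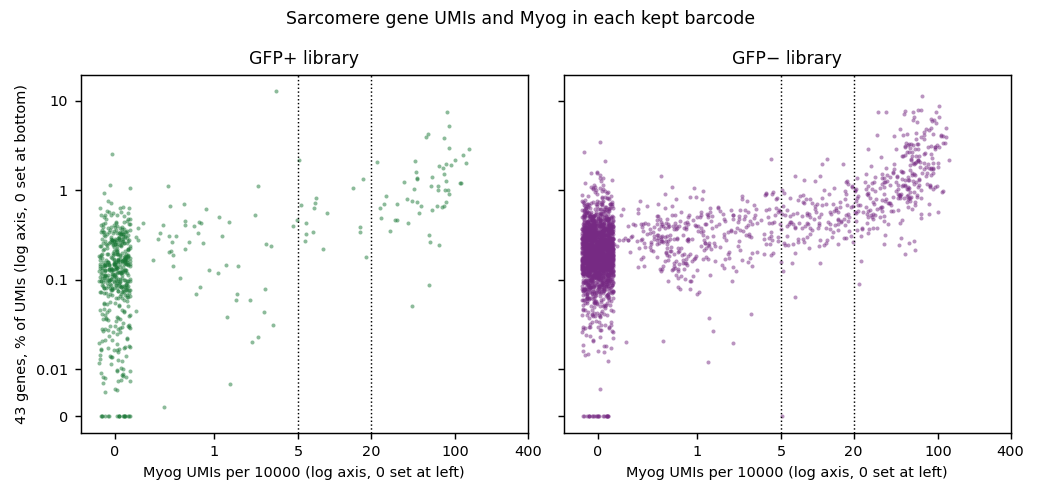
Share of each kept cell's UMIs that came from the 43 genes (log axis, 0 set at the bottom) against its Myog UMIs per 10000 (log axis, 0 set at the left), 1 point per cell, with dotted lines at the cuts of 5 and 20. Cells right of 20 reach shares above 2%, 12 of 56 in GFP+ and 87 of 279 in GFP-, and 1 GFP+ cell of the Myog-low level stands alone near 12.9%.

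The Myog-high cells varied widely among themselves. The median share of UMIs from the 43 genes was 1.03% in GFP+ and 1.24% in GFP- Myog-high cells, against 0.129% and 0.200% in Myog-0 cells, and 2 of 56 and 19 of 279 Myog-high cells held 5% or more. A few cells supplied much of some genes: 50% of the Myh3 UMIs of Myog-high cells lay in 3 of 56 GFP+ and 11 of 279 GFP- cells, and 50% of those of Acta1 in 5 and 20. Actc1 was spread more evenly, with 50% in 12 and 44 cells. In GFP+ a single cell held 478 of 1117 Mylpf UMIs and a single cell 80 of 86 Tnnc1 UMIs. Of all Actc1 UMIs of kept cells, 98.2% in GFP+ and 97.0% in GFP- lay in Myog-high cells, and of Acta1 92.1% and 92.0%, but only 21.9% and 18.3% of those of Tpm1 and 9.56% and 12% of those of Mybpc1.

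Counting cells likewise set apart genes seen mainly in Myog-high cells and genes also seen in many Myog-0 cells. With each cell thinned to 5000 UMIs, so that depth was equal, a median of 4 GFP+ and 5 GFP- genes of the set had a UMI in Myog-0 cells, 5 and 6 in low, 7 and 8 in middle and 11 and 13 in high cells, against 1 and 1 in macrophage-gated cells. Thinning left out 57 and 168 Myog-0 and 2 and 7 Myog-high cells. Median UMIs before thinning were 16362 and 13574 in Myog-0, 25613 and 17515 in Myog-high and 13558 and 8112 in macrophage-gated cells. Actc1 was detected in 1.45% of Myog-0 and 81.5% of Myog-high GFP+ cells (5.52% and 89.3% unthinned) and in 1.92% and 81.25% of GFP- cells (5.97% and 85.3% unthinned). In macrophage-gated cells, which should lack it, 1 of 69 in GFP+ (1.45%, 0.0367 to 7.81) and 2 of 44 in GFP- (4.55%, 0.555 to 15.5) had an Actc1 UMI. These are too few to place the Myog-0 shares above or below that background. The GFP- macrophage-gated cells also held 144 Myog UMIs, and up to 16 genes of the set in a cell. Klhl41 was detected in 0.483% and 50% of GFP+ cells (0.849% and 67.9% unthinned) and in 0.169% and 44.1% of GFP- cells (1.03% and 67.7% unthinned), beside 0 of 69, which allows up to 4.35%, and 1 of 44 macrophage-gated cells. For Myh3 the shares were 0.966% and 25.9% in GFP+ (1.91% and 48.2% unthinned) and 0.845% and 32.7% in GFP- (2.11% and 53.05% unthinned), beside 0 of 69 and 2 of 44 macrophage-gated cells.

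**Figure D3:**
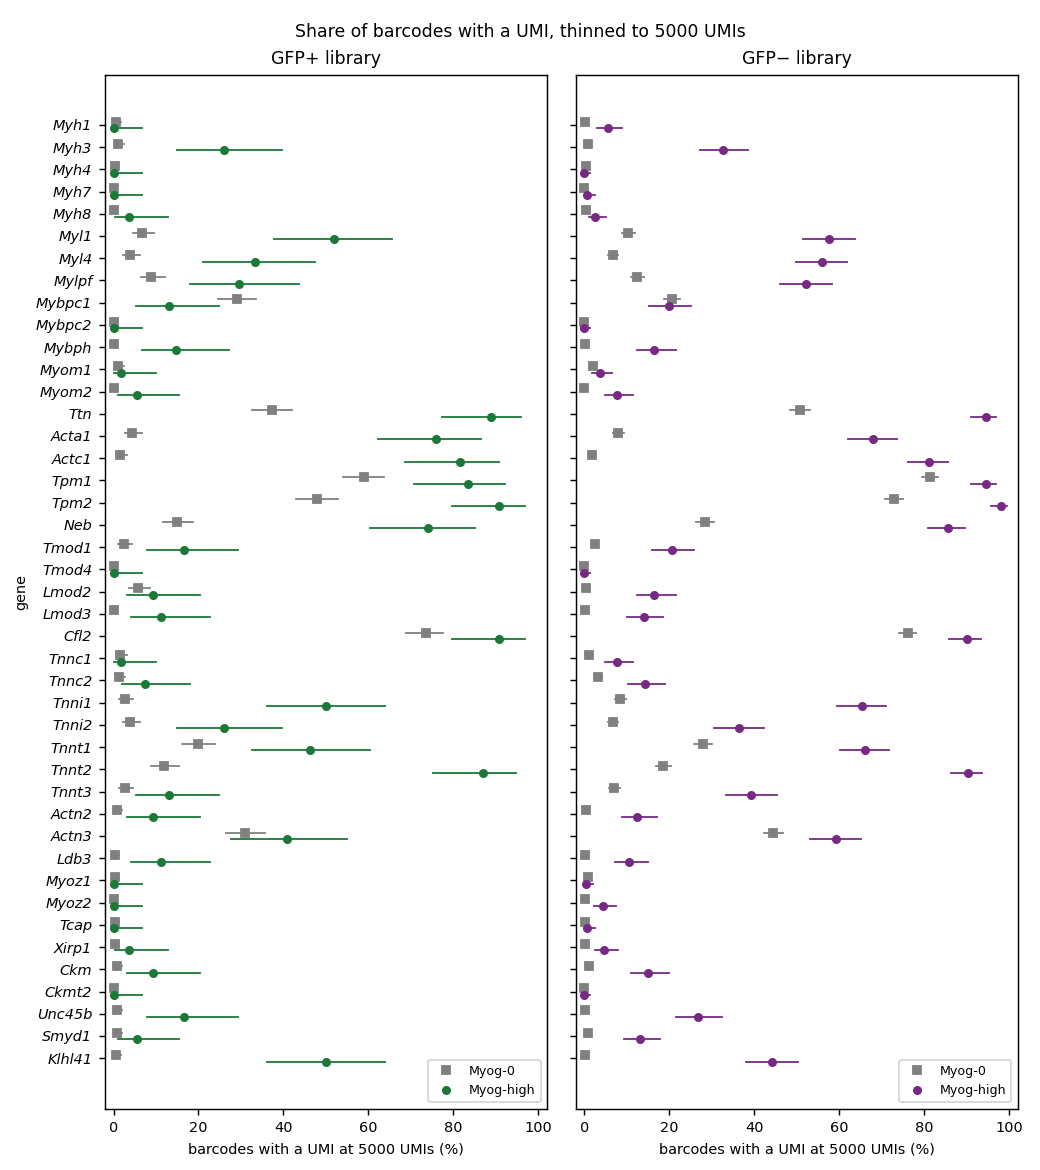
Percent of cells with at least 1 UMI after thinning to 5000 UMIs, for Myog-0 (squares) and Myog-high cells (circles) of each library, with exact 95% binomial intervals. Actc1, Acta1, Tnnt2 and Ttn reach 68% or more in Myog-high cells of both libraries, while Mybpc1 lies at 29.0% and 13.0% in GFP+ and at 20.7% and 19.85% in GFP-.

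Ttn, Tpm1 and Mybpc1 were detected in many cells without Myog. Without Myog, 37.2% of GFP+ and 50.7% of GFP- cells had a Ttn UMI (46.3% and 67.1% unthinned), against 0 of 69, which allows up to 4.35%, and 3 of 44 macrophage-gated cells (6.82%). Mybpc1 was detected in 29.0% and 20.7% of Myog-0 cells (49.0% and 39.5% unthinned), against 0 of 69 and 1 of 44 (2.27%). Tpm1 was detected in 31.9% and 40.9% of macrophage-gated cells too, so its presence alone does not mark a myogenic cell. In the mural-gated GFP- cells, smooth-muscle-like cells of vessels, Tpm1 stood at 1890 CPM and Tpm2 at 2327 CPM, above their Myog-high levels, and Myom1 at 48.8 CPM, while Acta1 and Actc1 were at 3.75 and 4.69 CPM.

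Sarcomere genes outside the set were also higher in Myog-high cells in part, and none of the cytoplasmic counterparts was. Of 28 other sarcomere genes, 9 reached 20 CPM in GFP+ and 5 were higher in Myog-high cells (9.31% of all features tested were), and 12 did in GFP-, of which 9 were higher (7.6% of all were). The 3 with the most UMIs were Des, the muscle intermediate filament (ratios 1.32 and 1.41), Cryab, a small heat-shock chaperone (3.48 and 3.42), and Flnc, muscle filamin (1.27 and 1.72). Of 14 genes for cytoplasmic actins, myosins, tropomyosins and their partners, all reached 20 CPM, none was higher, and 5 in GFP+ and 4 in GFP- were lower, where 19.5% and 14.5% of all features were. Actb and Actg1, the cytoplasmic actins, had ratios of 0.591 and 0.659 in GFP+ and of 0.612 and 0.662 in GFP-, and Myl6, the nonmuscle light chain, of 0.702 and 0.708.

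Within several isoform families the Myog-high cells leaned towards embryonic and cardiac-type members. All shares are over the genes of the family that belong to the 43, so cytoplasmic and other relatives such as Tpm3, Tpm4, Actn1, Actn4 and Tmod3 are not in the totals. Of the UMIs of the 5 listed myosin heavy chains in Myog-high cells, Myh3 made up 233 of 258 (90.3%, 86.0 to 93.6) in GFP+ and 2168 of 2322 (93.4%, 92.3 to 94.35) in GFP-. Myh1 followed with 6.20% and 3.36%, Myh8 with 3.10% and 2.76%, and Myh4 with 0.388% and 0.0431%. Myh7 had 0 of 258 UMIs in GFP+, where counting allows up to 1.42%, and 0.474% in GFP-. In Myog-0 cells these genes had 26 and 86 UMIs in all, too few to fix the shares.

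Actc1 made up 23.6% of sarcomeric actin UMIs in Myog-0 and 46.2% in Myog-high GFP+ cells, and 20% and 45.2% in GFP- cells. Among the troponins T, Tnnt1 led in Myog-0 cells with 50.7% and 47.0%, and Tnnt2 led in Myog-high cells with 75.8% (74.2 to 77.3) in GFP+ and 64.65% (63.9 to 65.4) in GFP-. Tnnt3 made up 5.41% (4.63 to 6.27) of the Myog-high UMIs in GFP+ and 15.99% (15.45 to 16.5) in GFP-. The slow Tnni1 went from 60.3% to 76.5% of troponin I in GFP+ and from 54.7% to 73.9% in GFP-. The slow and cardiac Tnnc1 went from 23.3% to 48.3% of troponin C in GFP-, where 50% of its 735 Myog-high UMIs lay in 4 of 279 cells. The GFP+ share of Tnnc1 in Myog-high cells, 81.1%, rests on 1 cell, and without that cell it was 23.1%. Myog-0 GFP+ cells held 21 UMIs of Tnnc1 beside 45 of Tnnc2, so without that cell the GFP+ share did not rise.

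In other families the balance of the listed genes also differed between Myog-0 and Myog-high cells. Mybph went from 0.345% to 55.6% of the myosin-binding protein C and H UMIs in GFP+ and from 0.568% to 70.9% in GFP-, the rest being nearly all Mybpc1. In GFP- Myom2 went from 4.42% to 73.0% of the summed Myom1 and Myom2 UMIs, and Myoz2 from 15.9% to 92.3% of those of Myoz1 and Myoz2. Actn2 went from 1.06% to 13.3% of the summed Actn2 and Actn3 UMIs in GFP+ and from 0.448% to 12% in GFP-. Lmod2 went from 86.2% of the summed Lmod2 and Lmod3 UMIs to 50.8% in GFP- and from 99.6% (270 of 271 UMIs) to 65.5% in GFP+. Tpm2 went from 29.8% to 47.6% of the summed Tpm1 and Tpm2 UMIs in GFP+ and from 33.9% to 50.1% in GFP-. Myl4 made up 45.65% and 49% of the summed Myl1 and Myl4 UMIs in Myog-high cells, against 38.4% and 34.8% in Myog-0 cells. In Myog-high cells of both fractions Tmod4 and Ckmt2 had 0 UMIs, beside 59 and 282 UMIs of Tmod1 and 74 and 683 of Ckm.

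All 3 isoform classes were higher in Myog-high cells. Summed over their genes, the developmental class went from 81.7 to 4096 CPM in GFP+ and from 104 to 6052 CPM in GFP-, the slow class from 162 to 754 and from 166 to 1449 CPM, and the fast class from 194.5 to 1459 and from 252 to 3665 CPM. As shares of the summed classes, developmental genes (Myh3, Myh8, Myl4, Actc1, Tnnt2) made up 18.7% of classed UMIs in Myog-0 and 64.9% in Myog-high GFP+ cells, and 20.0% and 54.2% in GFP- cells. The shares of slow genes were 36.9% and 11.95% in GFP+ and 31.8% and 13.0% in GFP-, and those of fast genes 44.4% and 23.1% in GFP+ and 48.2% and 32.8% in GFP-. Actc1 alone gave 3497 of the 6526 developmental UMIs in Myog-high GFP+ cells, while Acta1 with 4070 UMIs there was in no class. In free RNA developmental, slow and fast genes made up 38.1%, 18.5% and 43.4% in GFP+ and 38.5%, 16.9% and 44.6% in GFP-. The slow share in Myog-0 cells comes largely from Mybpc1 and Tnnt1, with 577 and 623 of 1341 slow UMIs in GFP+.

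**Figure D4:**
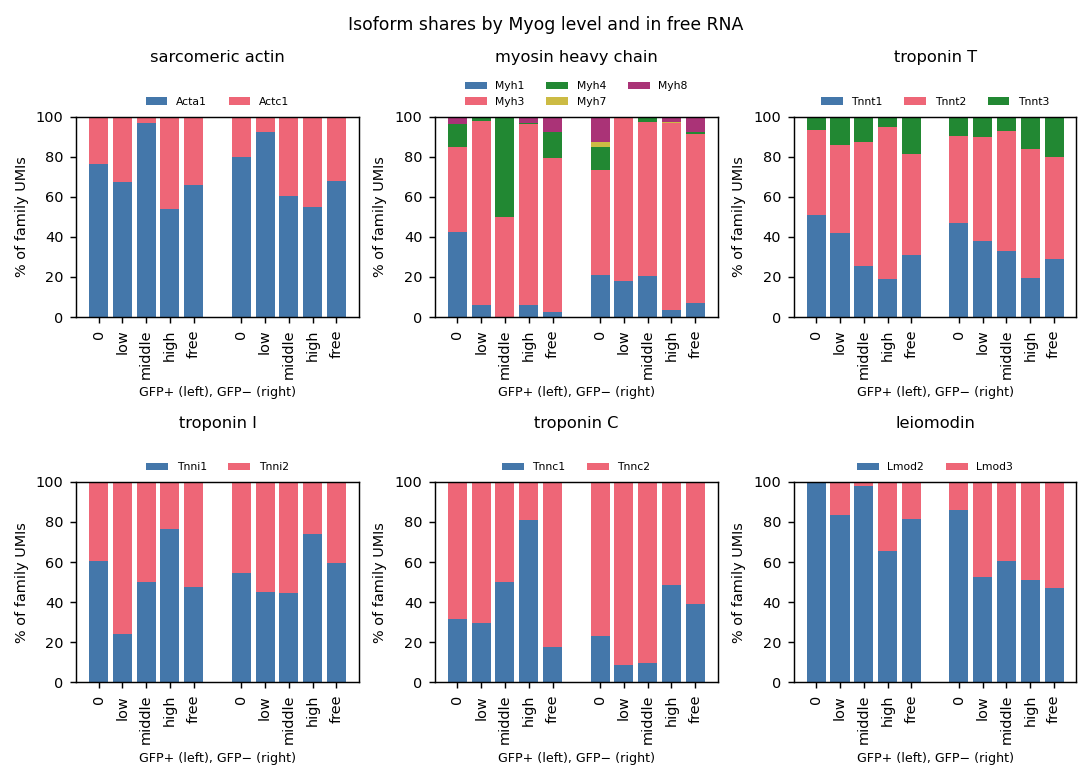
Share of each isoform in the UMIs of the listed genes of its family, in percent, in Myog-0, low, middle and high cells and in free RNA of GFP+ (left bars) and GFP- (right bars). The share of Tnnt2 is larger and that of Tnnt1 smaller in Myog-high than in Myog-0 cells of both libraries, and Actc1 is closest to Acta1 in Myog-high cells; the GFP+ middle bars of myosin heavy chain and troponin C rest on 2 UMIs each.

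The comparison of the fractions asks how satellite cells with and without the Pax3 reporter differ in regenerating muscle. Over all kept cells, 21 of the 43 genes reached 20 CPM in at least 1 library. Of these, 1 was higher in GFP+ (3.8% of all features tested were) and 5 were lower (0.516% of all were), with a median log2 ratio of -0.47 beside -0.11 over all features. The lower genes were Myh3 (24.2 CPM in GFP+ and 51.7 in GFP-, ratio 0.468, 0.413 to 0.529), Mylpf (141 and 297 CPM, 0.474), Tnni1 (52.75 and 108 CPM, 0.490), Tnnt3 (29.4 and 84.3 CPM, 0.348) and Tnnc2 (7.51 and 30.6 CPM, 0.246). The higher gene was Lmod2, with 35.6 CPM in GFP+ and 11.6 in GFP- (3.06, 2.68 to 3.48). The count of lower genes was 3 with at most 5% mitochondrial UMIs, 3 without marker-gated cells and 2 with size factors by the median of ratios, where 0.85%, 0.173% and 0.366% of all features were lower. The count of higher genes was 1 under each of these settings, where 3.92%, 1.43% and 4.28% of all features were higher.

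In Myog-high cells the difference was wider. Of 32 genes that reached 20 CPM, none was higher in GFP+ (1.33% of all features tested were) and 15 were lower (2.55% of all were), with a median log2 ratio of -0.87 beside -0.08 over all features. By role, the lower genes were Myh3, all 3 light chains, Myom2, Lmod3, 5 of 7 troponins, the Z-disc genes Ldb3 and Xirp1, Ckm and Unc45b. All 3 fast troponins were among them. Tnnc2 stood at 12.6 CPM in GFP+ and 141 in GFP- (0.0890, 0.0541 to 0.138), Tnnt3 at 104 and 508 CPM (0.204, 0.173 to 0.239), and Tnni2 at 90.4 and 227 CPM (0.398, 0.332 to 0.473). Tnnc2 and Tnnt3 had the lowest ratios of the 15 genes, followed by Myom2 at 0.235. In GFP- Myog-high cells 50% of the 786 Tnnc2 UMIs lay in 7 of 279 cells, a spread that the counting interval does not cover. A Tnnc2 UMI was found, unthinned, in 10 of 56 GFP+ and 70 of 279 GFP- Myog-high cells. Of the fast genes that reached 20 CPM, 5 of 6 were lower, of the developmental genes 2 of 4 and of the slow genes 2 of 4.

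The thin filament backbone differed less between the fractions. Acta1 had a ratio of 0.7255 (0.701 to 0.7505), Actc1 of 0.756 (0.729 to 0.784), Tnnt2 of 0.707 (0.676 to 0.739), Tpm2 of 0.812 and Tpm1 of 0.897. Cfl2, at 532 and 510 CPM (1.04, 0.964 to 1.13), and Mybpc1, at 45.2 CPM in both (0.9997, 0.758 to 1.30), did not differ beyond counting error. Of the 12 cytoplasmic counterparts that reached 20 CPM none was called, and of the 12 other sarcomere genes that did 3 were lower. Lmod2, higher in GFP+ over all cells, was at 60.9 CPM in GFP+ and 78.0 in GFP- Myog-high cells (0.780, 0.6195 to 0.974).

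**Figure D5:**
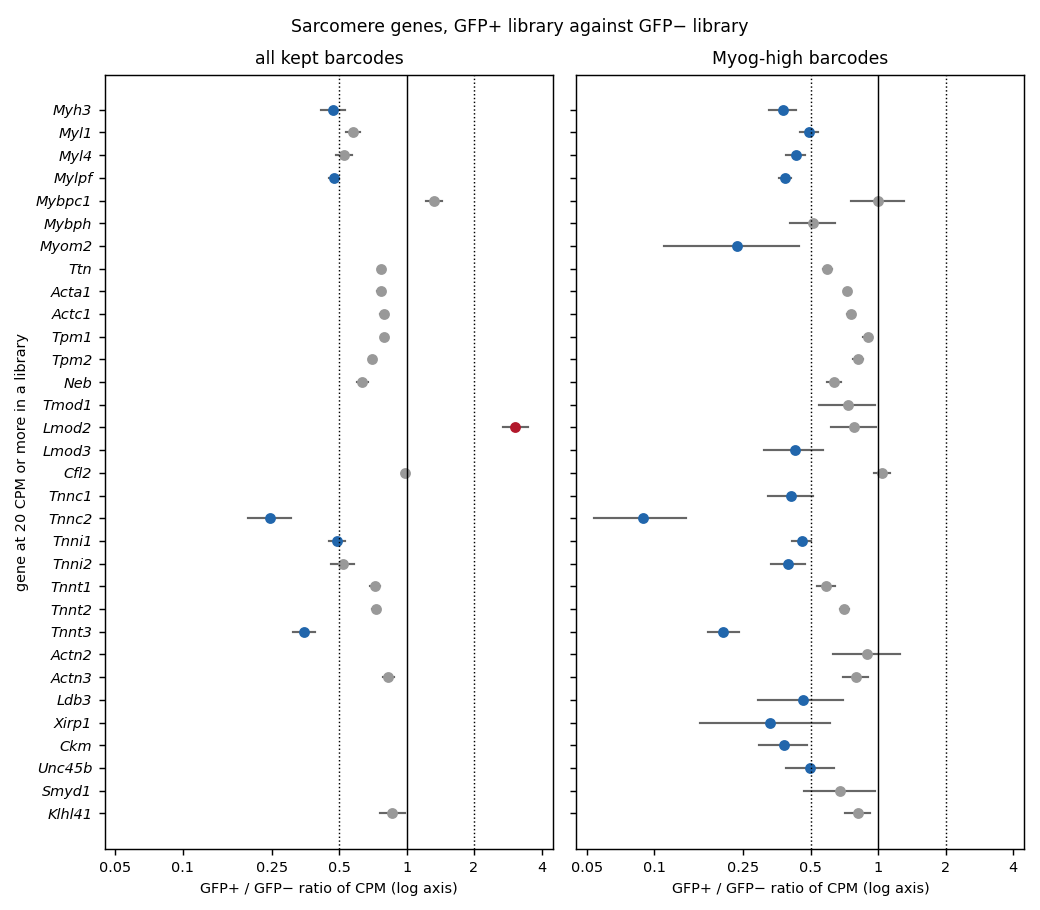
Ratio of GFP+ to GFP- CPM (log axis) with 95% counting intervals for genes that reached 20 CPM in at least 1 library, over all kept cells (left) and Myog-high cells (right); red is at least 2, blue at most 0.5, and dotted lines mark 0.5 and 2. Lmod2 alone lies right of 2, on the left panel, and 15 genes lie at or left of 0.5 on the right panel, Tnnc2 farthest at 0.0890.

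The fractions were not matched in Myog or in cell quality. Among Myog-high cells, Myog itself stood at 6314 CPM in GFP+ and 5477 in GFP-, and the median mitochondrial share was 2.64% in GFP+ and 4.72% in GFP-. At 60 or more Myog UMIs per 10000, in 32 GFP+ and 116 GFP- cells, 33 genes reached 20 CPM, 21 of them were lower in GFP+ (5.81% of all features tested were) and none was higher (2.66% of all were). There Mylpf stood at 460 and 2521 CPM, Tnnt3 at 41.5 and 760.5, Myh3 at 141 and 531, and Acta1 at 2718 and 5747. With at most 5% mitochondrial UMIs, which kept 53 and 165 Myog-high cells, 9 of 32 genes were lower (2.49% of all features were) and none higher (1.52% of all were). With Myog-high set from 10 per 10000, 8 of 31 genes were lower (2.19% of all were) and none higher (1.23% of all were). Without the Myog-high cell richest in these genes in each library, the ratio of Mylpf was 0.235 and that of Tnnc1 0.0295, in place of 0.386 and 0.409. Muscle fibre markers (8 genes, among them Mb and Pvalb) summed to 721 and 736 CPM in the Myog-high cells, macrophage markers to 21.97 and 66.4 CPM, and the part of the mitochondrial share in the difference was not tested.

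Among Myog-0 cells the fractions were closer. Of 14 genes that reached 20 CPM, Lmod2 was higher in GFP+ (4.71% of all features tested were) and Tnni2 lower, at 9.29 and 21.1 CPM (0.440; 0.851% of all were). Mybpc1 was at 69.6 CPM in GFP+ and 47.8 in GFP- (1.46, 1.32 to 1.61).

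Free RNA carried these transcripts at levels near those of the pooled cells. The 43 genes made up 0.405% of free RNA UMIs in GFP+ and 0.594% in GFP-, against 0.396% and 0.541% in the kept cells. Against free RNA no gene was higher in the kept cells of either library (2.63% of all features tested were in GFP+ and 0.331% in GFP-). In GFP+ 3 of 22 genes were lower, Tnnc2, Tnnt3 and Ckm (1.36% of all were), and in GFP- 2 of 23, Myh3 and Ckm (0.96% of all were). Ckm stood at 7.35 CPM in GFP+ cells and 62.2 in their free RNA (0.118, 0.0867 to 0.161).

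Split by Myog the cells lay on either side of free RNA. In Myog-0 cells 13 genes in GFP+ and 18 in GFP- were lower than in free RNA (1.89% and 1.8% of all features were), 13 in both, and none was higher (3.76% and 0.753% of all were). Actc1 in Myog-0 cells was at 0.0189 and 0.0171 times its free RNA level, and Acta1 at 0.0318 and 0.0324 times. In Myog-high cells 21 and 28 genes were higher than in free RNA (11% and 7.77% of all were), Actc1 10.1-fold and 10.3-fold and Acta1 6.12-fold and 5.88-fold. The exception was Tnnc2 in GFP+, which at 0.247 times (0.1425 to 0.411) was lower in Myog-high cells than in free RNA (17.3% of all features were), and no gene was in GFP-, where 12.8% of all were. Mybpc1, Tpm1 and Cfl2 lay near their free RNA level in Myog-0 cells, with ratios of 1.03, 0.931 and 1.09 in GFP+ and of 0.834, 0.981 and 1.13 in GFP-.

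Lmod2 was also present in GFP+ cells that held no Myog. Of 471 Myog-0 GFP+ cells, 40 had an Lmod2 UMI (270 UMIs in all), against 17 of 1943 in GFP- (50 UMIs), which gave 32.6 and 1.71 CPM (19.1-fold, 14.1 to 26.3). These GFP+ cells were shallow, with a median of 6802 UMIs against 17924 in the others. For genes chosen after values were seen, these cells stood at 398 CPM of Pax7, the satellite cell factor, against 235 in the other Myog-0 cells, at 761.7 against 199 CPM of Chodl, and at 501 against 49.2 CPM of Erfe, while Mki67, a marker of dividing cells, had 0 UMIs against 40.04 CPM. Myod1, a myogenic factor, was also higher in these cells, at 118 against 36.9 CPM. Their Actc1 stood at 6.22 CPM against 4.02, and Lmod3, a related leiomodin, had 0 UMIs against 1 in the other Myog-0 cells. In GFP- the 17 cells with Lmod2 stood at 206 against 181 CPM of Pax7, 297 against 120 of Chodl and 155 against 13.4 of Erfe. Their Mki67 had 0 UMIs against 86.5 CPM, and Myod1 went the other way from GFP+, with 1 UMI (6.45 CPM) against 40.1 CPM. In macrophage-gated cells, which count among the cells without it, Lmod2 had 0 UMIs in both libraries. In free RNA Lmod2 stood at 22.2 CPM in GFP+ and 6.83 in GFP-. With at least 5000 UMIs per cell the ratio of Lmod2 over all cells was 2.58.

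Mybpc1 was spread over many cells, 50% of its UMIs lying in 68 of 604 GFP+ and 290 of 2683 GFP- cells. Among Myog-0 cells it was at 103 CPM in GFP+ cells with a Chodl UMI and 43.3 in those without, and at 83.7 and 30.9 CPM in GFP-. Median UMIs of the cells with and without Chodl were 12220 and 20510 in GFP+ and 12119 and 15150 in GFP-. By Pax7 it was at 79.4 and 19.8 CPM in GFP+ and at 52.7 and 25.3 CPM in GFP-. Macrophage-gated cells, with 1.67 and 17.3 CPM of Mybpc1, were not taken out of these splits. Nor were the mural-gated GFP- cells, of which 2 of 109 had a Mybpc1 UMI. The 76 macrophage-gated GFP+ cells held 1 Pax7 UMI in all, and 100 Myog-0 GFP+ cells had no Pax7 UMI. The Pax7 split in GFP+ may therefore largely part macrophage-gated from other cells, and it was not recomputed without gated cells. The promoters of Mybpc1 and Mylpf printed near the opening both hold CAGCTG, while their levels by Myog differ.

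For several genes another gene lies over the same bases. The use of strand in counting was not given in the sources used here, so how far the counts of such pairs were kept apart is not known. On the opposite strand these include Tnnc2 with Ube2c, Tnnc1 with Nisch, Acta1 with Gm20388, Actc1 with A530058N18Rik, Myom1 with Myl12a, Tnnt3 with Prr33, Ckm with A930016O22Rik and Mybph with Adora1, and on the same strand Xirp1 with Cx3cr1, a macrophage gene. By the GENCODE M21 annotation of mm10 the set is spread over 15 chromosomes. Clustered on chromosome 11 are 4 of the 5 heavy chain genes: Myh3 at 67078300 to 67102291, Myh1 at 67200052 to 67224575, Myh4 at 67238029 to 67260446 and Myh8 at 67277124 to 67308634. Of these 4 genes Myh3 alone passed 20 CPM.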

How the data were processed

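The authors deposited raw UMI counts per gene and barcode, unfiltered, for both libraries. Cell Ranger, Seurat and the mm10 build are named in the submitters' processing notes, and the file headers give Cell Ranger output version 4. From these counts UMIs were summed over cells and scaled to CPM, with exact Poisson intervals for levels, exact conditional intervals for ratios and Clopper-Pearson intervals for shares. A gene was called at 20 CPM or more in 1 of the compared sums and a ratio of at least 2 or at most 0.5. Free RNA is the sum of barcodes of 1 to 100 UMIs.

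The 43 genes, the other lists and the thresholds were chosen with earlier results of these data known. Full values are given for the 5 myosin heavy chains and, in each role, the 3 genes with the most UMIs, and every isoform family has its shares; the other lists have their 3 genes with the most UMIs named. Levels of Actc1, Neb, Cfl2, Tmod1, Tmod4, Lmod2, Myom1, Myom2, Mybpc2, Tnni2, Tnnt3 and Tnnc2 were added after their values were seen. The sources do not say whether cells of a library came from 1 or several animals, and cells are not replicates, so no p-values are given. Scrublet, run at an expected rate of 0.08, marked 3 cells in each library (0.497% and 0.112%), so doublets were in effect not removed. Intervals cover counting error only. Counting and interval code was tested on simulated data. The software was scanpy 1.11.5, pandas 2.3.3, scipy 1.17.1, numpy 2.4.6 and matplotlib 3.10.9 under Python 3.11.15, with GENCODE M21 for positions and RefSeq promoter sequences (GRCm38.p6). Alternatives tried were other limits on mitochondrial UMIs, depth, CPM and fold, other Myog cuts, gated cells left out, doublets left out, size factors by the median of ratios, other free RNA ranges and other thinning depths. Protein sequences were not used here.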

Additional observations from a re-analysis of the deposited data

How the results depend on the processing

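Of 138 recomputed counts of genes 113 stayed within 1.5 times the reported count and 25 moved. Of 488 recomputed single-gene ratios 383 stayed within the counting interval of the reported one. No ratio past 2-fold crossed 1, but 13 recomputed ratios of 6 genes under 2-fold did (Actc1, Actn2, Cfl2, Klhl41, Lmod2 and Mybpc1), among them Actc1 over all cells, from 0.789 to 1.05 with at most 5% mitochondrial UMIs. In what follows the percentage beside a count is the share of all features tested that were called the same way. Over all cells the 5 genes lower in GFP+ became 3 with at most 5% mitochondrial UMIs (0.85%) and 3 without marker-gated cells (0.173%). They became 2 with size factors by the median of ratios (0.366%) and 9 of 21 at 1.5-fold (2.63%). With no CPM minimum 13 of 43 were lower (17.2%) and 2 higher (13.1%). The 1 higher gene became 0 at 50 CPM (3.67%). In Myog-high cells the 15 lower genes became 9 with at most 5% mitochondrial UMIs (2.49%) and 8 with Myog-high from 10 per 10000 (2.19%). There the 0 higher genes became 1 of 40 with no CPM minimum (8.91%). For Myog-high against Myog-0 cells the 0 lower genes became 4 of 42 in GFP+ (39.8%) and 3 of 43 in GFP- (37.3%) with no CPM minimum. At 1.5-fold they became 1 of 28 in GFP+, Mybpc1 (29.2%). Against free RNA the 3 lower GFP+ genes became 12 of 42 with no CPM minimum (10.3%), 5 of 22 at 1.5-fold (5.29%) and 8 of 24 with free RNA from 21 to 100 UMIs (8.21%). Under the same settings the 0 higher became 1 (23.7%), 1 (12.9%) and 2 (9.28%). The 2 lower GFP- genes became 1 without gated cells (1.74%), 1 at 50 CPM (1.1%) and 1 with free RNA from 1 to 20 UMIs (0.664%). They became 5 of 23 at 1.5-fold (4.17%). With no CPM minimum 8 of 43 were lower (9.15%) and 2 higher (23.5%). Beyond the no-minimum and fold settings, which change the threshold itself, the cause was not tested. In Myog-high cells the GFP+ to GFP- ratio went from 0.895 to 1.34 for Actn2 and from 0.499 to 0.815 for Unc45b with at most 5% mitochondrial UMIs. Leaving out the gene-richest cells and Myog-high from 60 per 10000 were chosen after seeing the data. No paired analysis was possible because each fraction has 1 library. The 56 Myog-high GFP+ cells limit every ratio in that group.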
